A study of Mus musculus with 18 samples.

Results

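A set of 9 genes of the AP-1 transcription factors and the immediate early response was followed through all libraries of the study: Fos, Fosb, Fosl2, Jun, Junb, Jund, Jdp2, Egr1 and Ier2. They were taken by symbol, and all 9 were found among the 23453 gene symbols of the count table. All 9 also passed the filter on low counts in both fits. The genes had been picked with their values under Hrs knockdown already known, in both culture batches, in the difference between the batches and in tumours. Those values are therefore a description. Where the number of these genes past a threshold is given for such a contrast, it stands beside the share of all genes past it and supports nothing.

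The cells were B16F10, a melanoma line of C57BL/6J mice, and all of them carried a lentiviral pLKO.1 hairpin, either shHrs, against Hgs, or shCTL, a scrambled sequence. Hgs encodes Hrs, an ESCRT-0 protein that gathers ubiquitinated membrane proteins, growth factor receptors among them, on endosomes. RNA came from cells in culture, as 2 batches of 2 shHrs and 2 shCTL libraries each, and from tumours in wild-type, immunocompetent, female C57BL/6 mice of 6 to 8 weeks, 5 with shHrs and 5 with shCTL. Infected cells were selected with puromycin or blasticidin for 5 days, so each group came from selected pools rather than from a named clone. The labels do not say which drug or which hairpin each library had. They speak of biological repeats without saying whether separate cultures were kept, so p-values here measure library-to-library spread, part of which may be technical. Tumour pieces also hold host cells, and in such bulk RNA fewer cells of a type and less RNA per cell cannot be told apart.

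Total counts ran from 17.6 to 27.7 M (mega) per library. Hgs itself was lower in every shHrs library than in every shCTL library of its batch or of the tumours, with log2 fold changes of -1.67 (SE 0.22) in batch 1, -1.30 (SE 0.22) in batch 2 and -2.28 (SE 0.16) in tumours. All libraries carried high levels of 9 melanoma markers such as Pmel and Dct, whose CPM (counts scaled to a common library size, with TMM factors) summed to between 8123 and 29920 in cultures and between 24639 and 35579 in tumours. The shHrs cultures of batch 2 were the lowest, at 8984 and 8123 CPM, against 19427 and 16638 CPM in the shCTL cultures of that batch. In the cultures, 6 of 20 leukocyte markers were at 0 in every library (Cd3g, Emr1, C1qa, Itgax, S100a9 and Cd52). The others had counts in at least 1 culture. All 20 together summed to 3.71 to 37.1 CPM in cultures, 38.4 to 545 CPM in shCTL tumours and 203 to 948 CPM in shHrs tumours.

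AP-1 is a dimer that binds DNA through basic leucine zippers. Jun, Junb and Jund can pair with each other, and Fos, Fosb and Fosl2 form their dimers with a Jun protein. Jdp2 also pairs with Jun proteins and acts mostly as a repressor at AP-1 and cAMP response sites. Genes of the immediate early response, such as Fos, Fosb, Jun, Junb, Egr1 and Ier2, are transcribed within minutes of a stimulus, without new protein synthesis, through factors already present, chiefly SRF with its ternary complex partners and CREB. Their RNAs are short-lived. Growth factors acting through MAP kinases, serum, stress and the handling of tissue are all known to raise them. In melanoma, where the MAP kinase pathway is commonly active, AP-1 is known for its part in invasion and in the change of cell state.

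The upstream ends of 4 of these genes are shown because the results turn on them: Fos and Jdp2 moved to opposite sides in culture batch 2, Fosb and Fos had the largest ratios in 1 control tumour, and Jun is the Jun family member with the largest ratio there. The sequences are RefSeq's, on GRCm38.p6, for up to 250 bases that lie before both the RefSeq and the GENCODE start, 5′ to 3′ on the gene's own strand. Windows were found for 7 of the 9 genes, and not for Egr1 and Ier2. The stretches are chr12:85473640-85473889 (plus strand) for Fos, chr7:19310052-19310295 (minus strand) for Fosb, chr4:95052223-95052472 (minus strand) for Jun and chr12:85598855-85599026 (plus strand) for Jdp2, whose window is the first of 3. Capitals mark matches to any of the motifs searched on both strands: TGACGTCA (the cAMP response element), TGACG (its shorter form, held by every TGACGTCA), TGACTCA (the AP-1 site), TGACATCA (the Jun promoter's AP-1-like site), the CArG box and TATAAA (the TATA box).
Fos: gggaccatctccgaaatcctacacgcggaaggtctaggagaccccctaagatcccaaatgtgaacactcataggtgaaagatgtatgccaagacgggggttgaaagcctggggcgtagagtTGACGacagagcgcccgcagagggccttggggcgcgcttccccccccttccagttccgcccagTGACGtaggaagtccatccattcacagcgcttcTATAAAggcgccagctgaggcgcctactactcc
Fosb: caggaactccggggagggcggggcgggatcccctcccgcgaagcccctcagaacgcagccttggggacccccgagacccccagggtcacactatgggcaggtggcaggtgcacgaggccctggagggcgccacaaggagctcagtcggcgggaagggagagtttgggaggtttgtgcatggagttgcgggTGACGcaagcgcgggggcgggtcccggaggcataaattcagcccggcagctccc
Jun: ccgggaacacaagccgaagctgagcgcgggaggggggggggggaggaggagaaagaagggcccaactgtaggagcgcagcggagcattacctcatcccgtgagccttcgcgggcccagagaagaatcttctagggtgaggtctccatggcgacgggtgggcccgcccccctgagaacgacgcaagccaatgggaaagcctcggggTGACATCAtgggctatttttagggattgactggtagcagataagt
Jdp2: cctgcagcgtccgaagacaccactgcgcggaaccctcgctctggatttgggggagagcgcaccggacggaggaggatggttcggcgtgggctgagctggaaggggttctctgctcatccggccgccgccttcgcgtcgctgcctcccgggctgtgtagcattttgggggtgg

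TGACG stood 2 times in the Fos stretch, starting 66 and 129 bases before the start, and TATAAA started 33 bases before it. Fosb held TGACG from base 60 and Jun held TGACATCA from base 45 before their RefSeq starts. The Jdp2 stretch printed held none of the motifs, and another of its windows, which lies after its GENCODE start, held TGACG. In all, 4 of the 7 genes with a window had TGACG (Fos, Fosb, Junb and Jdp2), 1 had TGACATCA, 1 had TATAAA, and 0 had TGACGTCA, TGACTCA or a CArG box. These are counts per gene over 9 windows, several of them of Jdp2, whereas the shares that follow are per window. Among all 32851 RefSeq windows of that length, 17.8% held TGACG, 2.93% held TGACATCA, 12.4% held TATAAA, 1.55% held TGACGTCA, 4.46% held TGACTCA and 1.47% held a CArG box. A match describes letters and is not evidence of binding. Bases farther than 250 before a RefSeq start were not searched, so a lack of matches covers these windows only.

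The genes lie on 6 chromosomes (GENCODE M21, GRCm38). Fos (chromosome 12, 85473890 to 85477273) and Jdp2 (chromosome 12, 85599027 to 85639878) are neighbours, on the same strand, with Jdp2 starting 121.754 kb after the end of Fos. Fosb is on chromosome 7 (19302696 to 19310051), Fosl2 on chromosome 5 (32135801 to 32157842), Jun on chromosome 4 (95049034 to 95052222) and Egr1 on chromosome 18 (34859823 to 34864984). Chromosome 8 carries Junb (84974484 to 84978718), Jund (70698949 to 70700616) and Ier2 (84661331 to 84662852). Junb overlaps Prdx2 at their 3′ ends on opposite strands, and with no strand setting known for the counting, reads from the overlap cannot be told apart. Prdx2 had log2 fold changes of -0.60 (SE 0.34) in batch 1, 0.13 (SE 0.34) in batch 2 and -0.01 (SE 0.10) in tumours. Jun, Jund and Jdp2 each overlap a noncoding RNA on the opposite strand that has no row of its own in the table.

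Per kilobase of exon, Jund was the most abundant of the 9 in all 6 groups, with means from 73.1 to 115 CPM per kb, and Fosb the least abundant, from 0.0845 to 1.79 CPM per kb. The libraries of Jund did not overlap with those of the next gene in 5 groups. They did in batch 1 shHrs. Ier2, Jun and Junb stood between 15.4 and 33.3 CPM per kb, and where they were next to each other in the order their libraries overlapped, except for Ier2 above Jun in the shCTL cultures of batch 2. The places of Fos, Jdp2 and Junb each differed by up to 4 between groups. In batch 2, Jdp2 was the second at 28.3 ± 5.71 CPM per kb (SD, n = 2) with shCTL and the sixth at 5.99 ± 0.18 (n = 2) with shHrs, while Fos went from the seventh at 1.41 ± 0.43 (n = 2) to the fifth at 9.54 ± 1.58 (n = 2). In tumours, which were scaled apart from the cultures, Fos was the third at 28.5 ± 22.7 CPM per kb (n = 5) with shCTL and the fifth at 18.7 ± 2.58 (n = 5) with shHrs, where it overlapped with its neighbours Jdp2 and Junb.

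**Figure D1:**
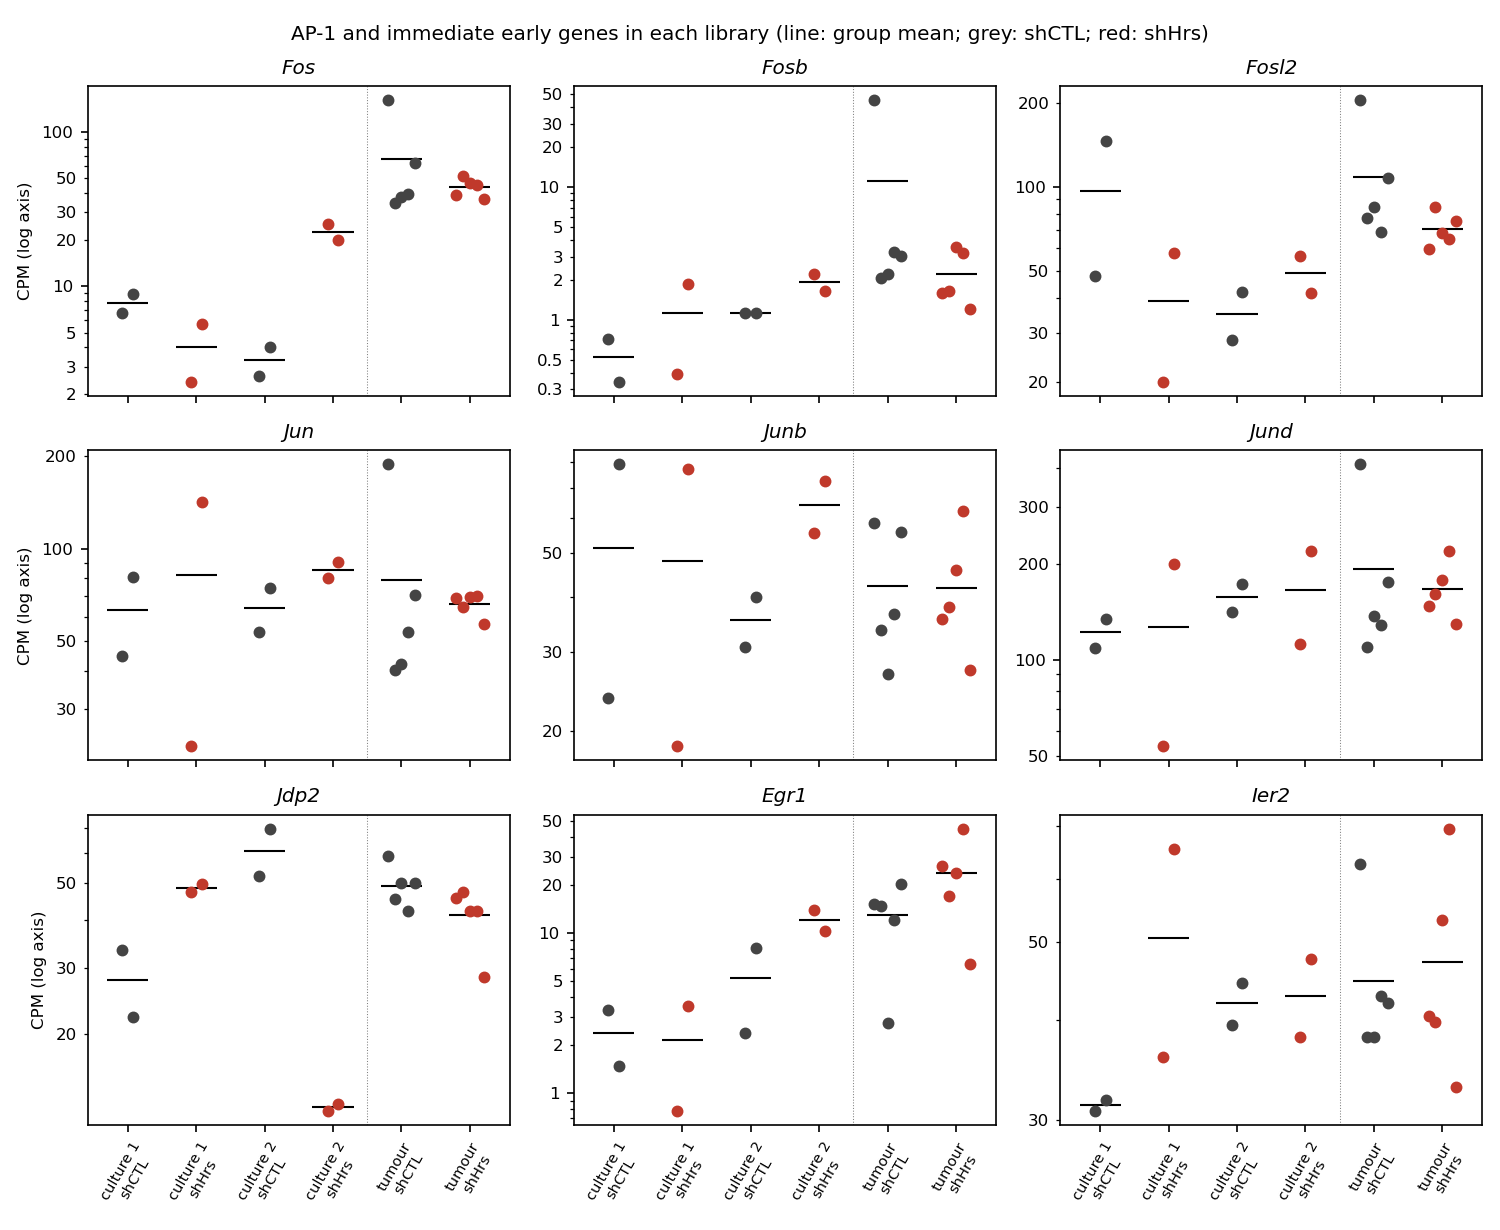
CPM of each of the 9 genes in each library, on log axes with a range of their own per gene; dots are libraries, lines are group means, and the dotted line parts cultures from tumours, which were scaled separately. From the shCTL to the shHrs cultures of batch 2, Fos is higher and Jdp2 lower, and 1 shCTL tumour stands at the top for 6 of the 9 genes.

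Fos, a partner of Jun proteins whose gene responds quickly to growth factors, was higher with Hrs knockdown in batch 2 and lower in batch 1. In batch 2 it measured 2.61 and 4.04 CPM with shCTL and 25.1 and 19.8 CPM with shHrs, a log2 fold change of 2.75 (SE 0.47). In batch 1 it measured 6.68 and 8.89 CPM with shCTL and 2.39 and 5.71 CPM with shHrs, a log2 fold change of -0.94 (SE 0.45). The groups did not overlap in either batch, and their order was opposite. The difference between the effects was 3.69 on the log2 scale (SE 0.65). In tumours Fos stood at 160.4, 34.6, 37.9, 39.6 and 62.3 CPM in shCTL tumours 1 to 5 and at 39.2, 52.0, 46.7, 45.5 and 36.9 CPM in shHrs tumours 1 to 5. All 5 shHrs tumours lay inside the shCTL range. The log2 fold change of -0.61 (SE 0.38) became 0.02 without shCTL tumour 1.

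Jdp2, the repressor, had the opposite order in both batches. In batch 2 it measured 52.2 and 69.5 CPM with shCTL and 12.6 and 13.1 CPM with shHrs, a log2 fold change of -2.24 (SE 0.28). In batch 1 it measured 33.3 and 22.2 CPM with shCTL and 47.3 and 49.8 CPM with shHrs, a log2 fold change of 0.80 (SE 0.27). The shHrs libraries of each batch were close to each other, and neither batch showed overlap. The difference between the effects was -3.05 on the log2 scale (SE 0.38). In tumours Jdp2 ranged from 42.1 to 58.9 CPM with shCTL (median 50.0) and from 28.3 to 47.5 CPM with shHrs (median 42.2), a log2 fold change of -0.26 (SE 0.14) with overlap.

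Of the 9 genes, 1 (Fos) was higher and 1 (Jdp2) lower past an adjusted p of 0.05 by edgeR's quasi-likelihood test in batch 2, where 1.6% of 12897 genes tested were higher and 2.43% lower, 4.03% in all. In batch 1 the count was 0 of 9, beside 0% of genes, and at an unadjusted p below 0.05 it was 2 of 9 (Ier2 and Jdp2), beside 9.38%. DESeq2 and limma voom also called 0 of the 9 there. In the difference between the batches 1 of 9 passed (Jdp2), beside 0.155% of genes, and 2 of 9 (Fos and Jdp2) were below 0.05 unadjusted, beside 20.3%. In tumours 0 of 9 passed, beside 0.545% of 13215 genes, and 2 of 9 (Fosb and Fosl2) were below 0.05 unadjusted, beside 14.1%. DESeq2 and limma voom called 0 of the 9 in tumours too. The libraries did not overlap for 3 of 9 genes in batch 1 (Fos, Ier2 and Jdp2), beside 32.1% of genes, for 6 of 9 in batch 2, beside 69.7%, and for 0 of 9 in tumours, beside 4.52%. As the genes were chosen on these contrasts, nothing is read from these counts. Without any single batch 2 library edgeR called 0 genes of the whole table in batch 2, Fos and Jdp2 included, and the Jdp2 difference, which passed under 7 of 13 alternatives, also fell short without batch 1 shCTL 2 and with a replicate block.

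Fosb and Fosl2, the other Fos proteins, varied widely between libraries of one group. Fosb rested on 6 to 47 counts per culture, at 0.34 to 2.23 CPM, with log2 fold changes of 1.06 (SE 0.76) in batch 1 and 0.78 (SE 0.71) in batch 2. In tumours it stood at 45.3, 2.07, 2.22, 3.25 and 3.05 CPM in shCTL tumours 1 to 5, against 1.21 to 3.53 CPM with shHrs (median 1.65). A single shCTL tumour was thus high, and the log2 fold change of -2.33 (SE 0.89) became -0.24 without it. Fosl2 measured 48.0 and 145 CPM with shCTL and 19.9 and 57.8 CPM with shHrs in batch 1, which overlapped. Its log2 fold changes were -1.31 (SE 0.60) in batch 1, 0.49 (SE 0.59) in batch 2 and -0.62 (SE 0.26) in tumours. Without shCTL tumour 1, at 204 CPM against 68.9 to 107 CPM in the other 4, the last became -0.25.

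The 3 Jun genes, which supply the partner that every Fos dimer needs, gave log2 fold changes below 1 in size in all 3 comparisons. Jun measured 44.7 and 81.1 CPM with shCTL and 22.7 and 142 CPM with shHrs in batch 1, and 53.4 and 74.4 CPM against 80.4 and 90.6 CPM in batch 2. The shHrs libraries of batch 1 lay on both sides of their controls, whereas those of batch 2 lay above. Jun had log2 fold changes of 0.39 (SE 0.68) and 0.42 (SE 0.68) in batches 1 and 2 and of -0.26 (SE 0.37) in tumours, where the value was 0.36 without shCTL tumour 1. Junb, an early gene that can restrain Jun, measured 30.8 and 39.97 CPM with shCTL and 55.7 and 72.7 CPM with shHrs in batch 2, a log2 fold change of 0.86 (SE 0.69). In batch 1 its libraries ran from 18.4 to 79.2 CPM with full overlap (-0.10, SE 0.68), and in tumours the log2 fold change was -0.02 (SE 0.25). Jund, the member that resting cells also express, overlapped in all 3 comparisons, with log2 fold changes of 0.05 (SE 0.55), 0.08 (SE 0.55) and -0.20 (SE 0.33).

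Egr1, a zinc finger factor, and Ier2, a small nuclear protein, are immediate early genes outside AP-1. Egr1 measured 2.38 and 8.07 CPM with shCTL and 14.0 and 10.3 CPM with shHrs in batch 2, a log2 fold change of 1.21 (SE 0.76). In batch 1 it stayed at 0.778 to 3.51 CPM with overlap (-0.16, SE 0.79). In tumours it ranged from 2.74 to 20.4 CPM with shCTL (median 14.8) and from 6.39 to 44.6 CPM with shHrs (median 23.6), a log2 fold change of 0.85 (SE 0.51). It is 1 of 2 of the 9 genes whose tumour value was positive. Ier2, the other, had log2 fold changes of 0.08 (SE 0.20) in tumours and 0.03 (SE 0.30) in batch 2. In batch 1 Ier2 measured 30.8 and 31.8 CPM with shCTL and 35.9 and 65.4 CPM with shHrs, a log2 fold change of 0.70 (SE 0.30).

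**Figure D2:**
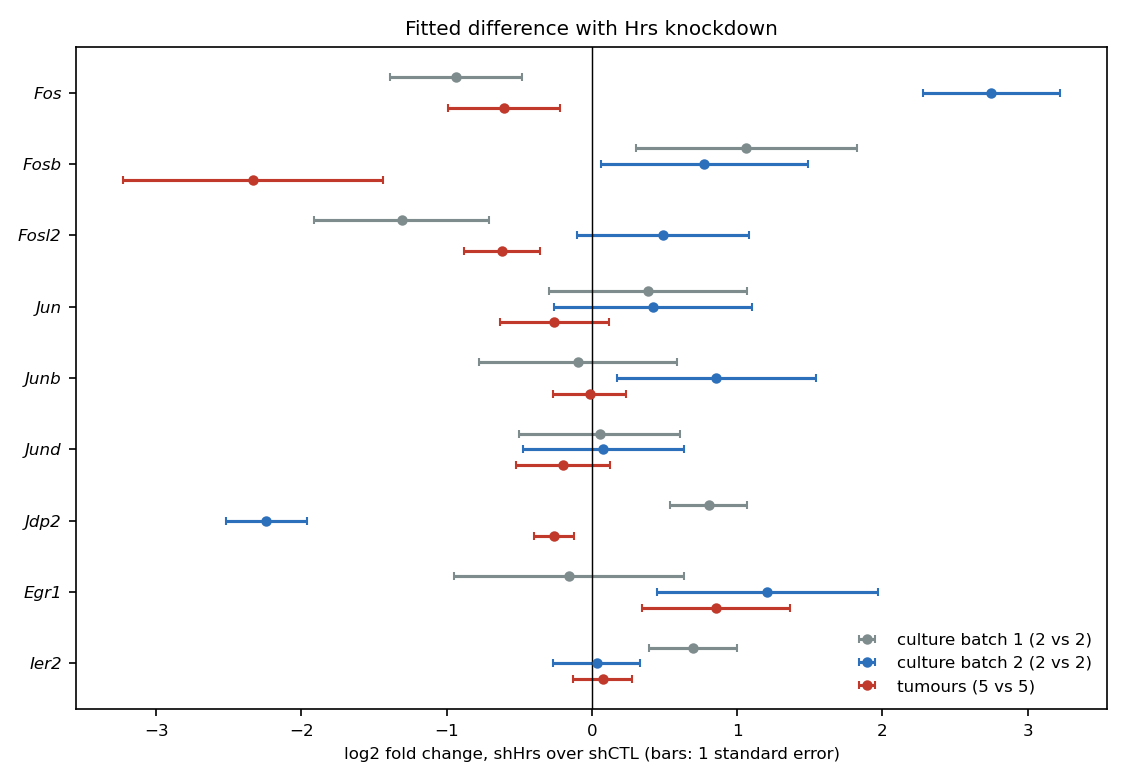
Fitted log2 fold change of shHrs over shCTL for each gene in batch 1, batch 2 and tumours; bars are 1 standard error. Fos and Jdp2 lie on opposite sides of 0 in batch 2 (2.75 and -2.24), and each has the other sign in batch 1.

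The control cultures of the batches were compared with each other, a contrast the choice of genes did not use directly. The difference between the batches, which was known to the choice, contains this contrast with the opposite sign. Genes picked with that difference known can thus show a control difference of the other sign, so nothing is read from the counts here. Of the 9 genes, 0 passed by edgeR, beside 0% of the 12897 genes, and 3 were below 0.05 unadjusted (Fos, Fosl2 and Jdp2), beside 7.06%. DESeq2 called 1 (Jdp2), of 129 in the whole table, and limma voom 0. Jdp2 was higher in both shCTL cultures of batch 2 than in both of batch 1, a log2 difference of 1.13 (SE 0.27; edgeR adjusted p = 0.387), and Fos was lower in both, a difference of -1.22 (SE 0.46). Fosl2 was lower too (-1.46, SE 0.60). The libraries did not overlap for 6 of the 9 genes, beside 46.9% of all genes. Batch cannot be told apart from other differences between these cultures.

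Within the cultures of batch 1, shHrs 1 was the lowest of all 8 cultures for 6 of the 9 genes (Fos, Fosl2, Jun, Junb, Jund and Egr1), whereas it was the lowest for 10.6% of 11747 genes with a mean of at least 1 CPM. Its partner, shHrs 2, was the highest of the 8 for Jun (142 CPM) and Ier2 (65.4 CPM). In CPM, the gap between these replicates was larger than that between the shHrs and shCTL means for Jun, Junb, Jund, Fosb, Egr1 and Ier2. Without shHrs 1 the log2 fold changes of batch 1 were -0.45 for Fos, 0.83 for Jdp2, 1.16 for Jun, 0.70 for Jund, 0.54 for Egr1 and 1.06 for Ier2. Without shHrs 2 they were -1.70 for Fos, 0.77 for Jdp2, -1.47 for Jun, -1.19 for Jund, -1.63 for Egr1 and 0.20 for Ier2. The sign of Jun, Junb, Jund, Fosb and Egr1 thus depended on which shHrs library was kept, while Fos, Fosl2, Jdp2 and Ier2 kept theirs. In each case the remaining shHrs library is assumed to vary like the other cultures. Over all genes edgeR called 1496 in batch 1 without shHrs 1, Ier2 among them, and 0 without shHrs 2.

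Among the tumours, shCTL tumour 1 held the highest value of all 10 for Fos, Fosb, Fosl2, Jun, Jund and Jdp2, and shHrs tumour 4 the highest for Junb, Egr1 and Ier2. Of 12472 genes, 12.6% were highest in the first of these tumours and 26.6% in the other. Compared with the mean of the other 4 shCTL tumours, tumour 1 held 17.1 times as much Fosb, 3.68 times as much Fos, 3.64 times as much Jun, 2.97 times as much Jund and 2.42 times as much Fosl2. The ratios were smaller for Ier2 (1.56), Junb (1.54), Jdp2 (1.26) and Egr1 (1.21). It lay above each of the other 4 for 8 of the 9 genes (88.9%; Egr1 is the exception), beside 24.7% of all 12472 genes, and by at least 1 on the log2(CPM + 2) scale for 5 of the 9, beside 27 genes in all (0.216%). These shares describe 1 tumour and carry no test.

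Related genes were compared in the same way, beside 24.7% of all genes. The tumour lay above the other 4 controls for 18 of 27 other immediate early genes (66.7%), 4 of 11 other AP-1 dimer proteins (36.4%), 10 of 28 upstream kinases and factors (35.7%), 4 of 12 MAPK feedback genes (33.3%) and 3 of 16 textbook AP-1 targets (18.8%). The median difference from the other 4 on the log2(CPM + 2) scale was 0.57 for other immediate early genes, -0.06 for the dimer proteins and -0.09 for the targets. Atf3, a stress-induced Jun partner, was at 83.4 CPM against 12.4 to 25.3 CPM in the other 4, and Nr4a1, an early nuclear receptor, at 287 CPM against 107 to 145. These examples were chosen after their values were seen. Markers of other cells also differed there. The summed CPM of fibroblast markers was 304, the lowest of the 5 shCTL tumours, with 0 of 12 markers above the other 4, and that of endothelial markers was 425, the lowest of all 10 tumours (0 of 12 above). The endothelial list also summed to 270 to 541 CPM in the cultures, so its sum does not measure host endothelium alone. Leukocyte markers summed to 102 CPM in a shCTL range of 38.4 to 545 (1 of 13 above), and erythroid markers to 1839 CPM, the highest of all 10 tumours, in a shCTL range of 57.0 to 1839. Of 3 erythroid markers compared, 2 lay above the other 4 tumours. Their median difference on the log2(CPM + 2) scale was 1.69, beside 1.27 for the 9 genes. The count above was 4 of 9 for melanoma markers and 0 of 12 for skeletal muscle markers. The part of these cells in the values of the early genes was not tested.

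**Figure D3:**
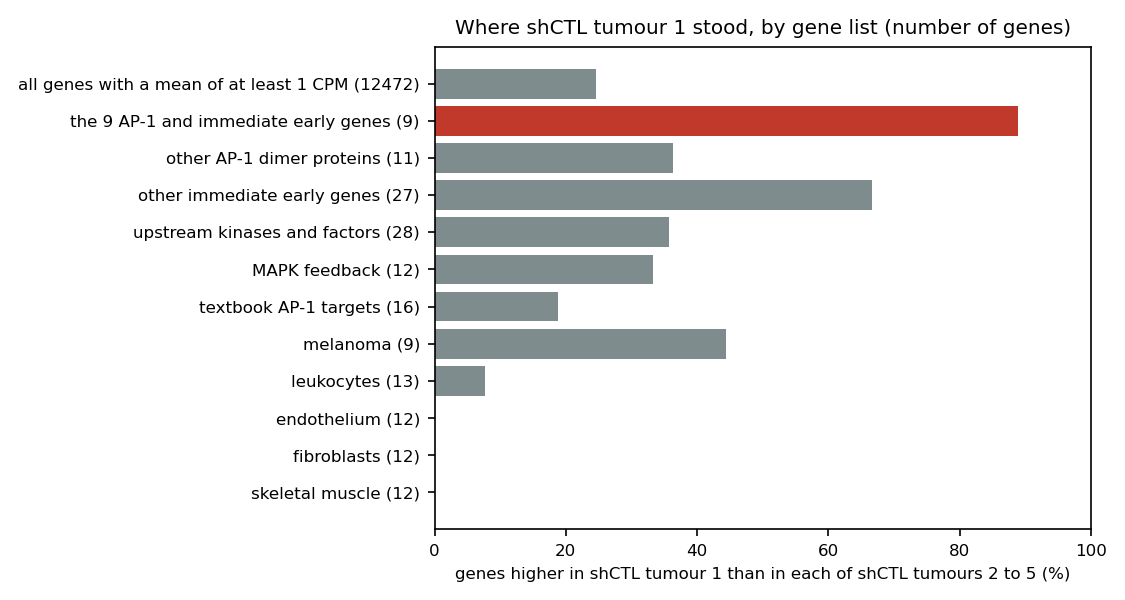
Share of the genes of each list (number of genes in brackets) that were higher in shCTL tumour 1 than in each of the other 4 shCTL tumours, in percent, for lists with at least 5 genes. The bar of the 9 genes reaches 88.9% and that of other immediate early genes 66.7%, against 24.7% of all genes.

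Over the 10 tumours the other 8 genes were compared with Fos on the log2(CPM + 2) scale. The choice did not use this relation directly, but the tumour contrast, drawn from the same values, was known. No share of all genes past the same test is given, so the number of genes passing here is a description. Pearson's r was 0.94 for Jun (permutation p adjusted over the 8 = 0.00472), 0.92 for Jund (0.00796), 0.92 for Fosl2 (0.0204), 0.93 for Fosb (0.0237) and 0.65 for Junb (0.0237). Jdp2 (r = 0.61, adjusted permutation p = 0.127), Ier2 (0.57, 0.115) and Egr1 (0.17, 0.580) did not pass. The raw permutation p for r ran from 0.00059 for Jun to 0.580 for Egr1. Spearman's rho passed for 3 genes: Jun (0.84), Junb (0.82) and Jund (0.82), each with an adjusted permutation p of 0.0151 (raw p 0.00387, 0.00568 and 0.00545). It was 0.60 for Fosb, 0.44 for Fosl2, 0.47 for Jdp2, 0.44 for Egr1 and 0.67 for Ier2, with adjusted permutation p from 0.0783 to 0.206. Leaving out the 2 tumours farthest from the median of Fos (shCTL tumours 1 and 5) gave r = 0.76 for Jund, 0.71 for Jun and 0.62 for Junb, but 0.29 for Fosb and 0.01 for Fosl2, whose relation to Fos therefore rests on those tumours. Without shCTL tumour 1 alone, 0 of 8 passed. With the group means removed r was 0.97 for Jun, 0.95 for Jund and 0.68 for Junb.

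**Figure D4:**
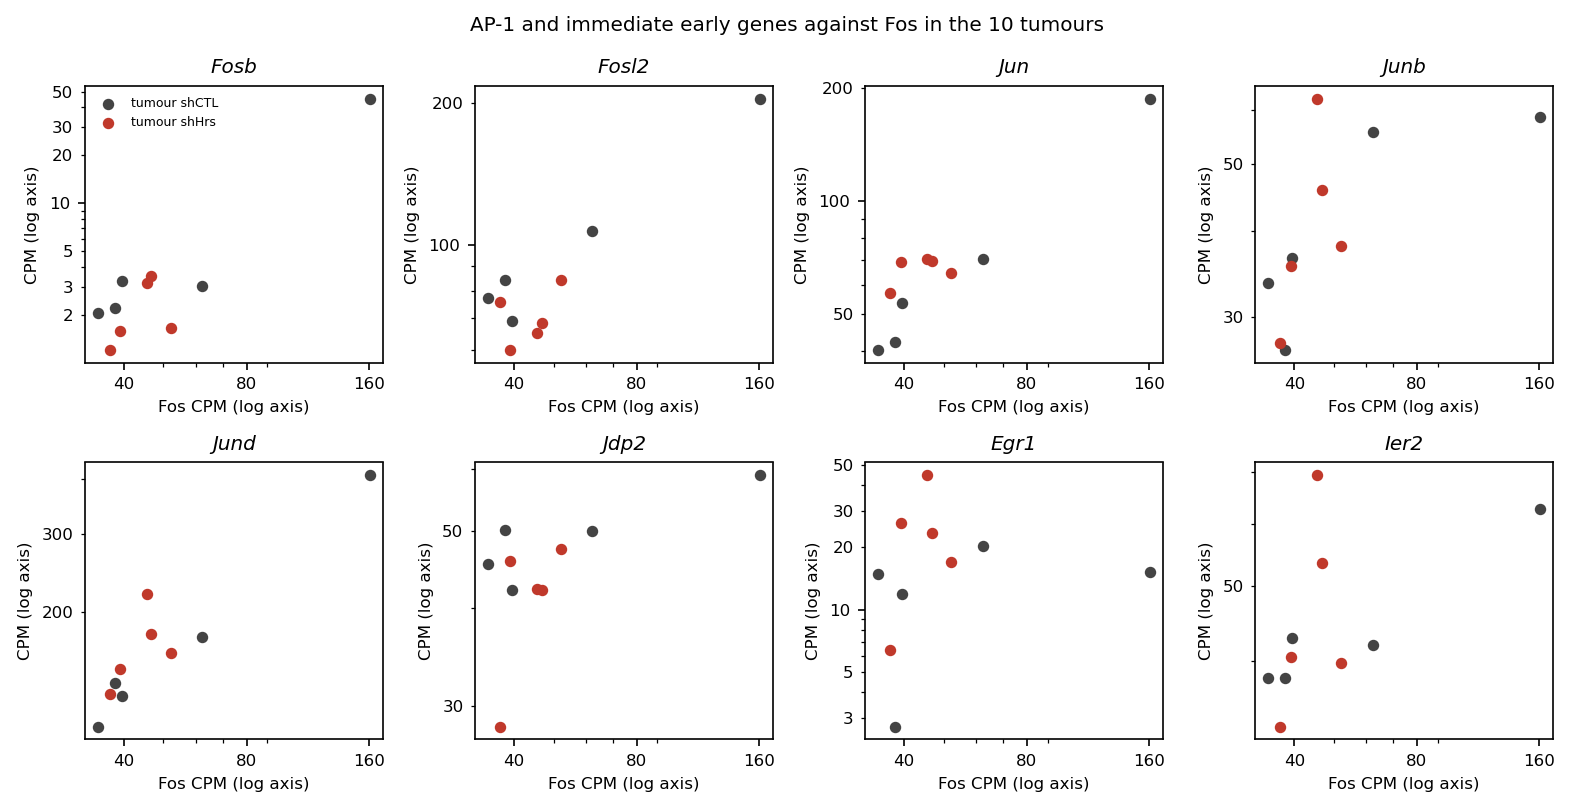
CPM of each of the other 8 genes against CPM of Fos in the 10 tumours, on log axes; black dots are shCTL and red dots shHrs tumours. The dot at 160.4 CPM of Fos is shCTL tumour 1. It held 12.8 times the value of the next tumour for Fosb, 2.67 times for Jun, 1.91 times for Fosl2 and 1.87 times for Jund. Without shCTL tumours 1 and 5, r is 0.29 for Fosb and 0.01 for Fosl2 but 0.71 for Jun and 0.76 for Jund.

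The rest of the pathway was read from 5 lists with 102 genes, all of them in the table and 86 of them tested in cultures (94 in tumours). In batch 2, 4 of 86 passed, beside 4.03% of all genes. Ctgf, a matricellular early gene, rose from 3.53 ± 0.71 to 65.4 ± 1.48 CPM (SD, n = 2 per group), or by 4.21 on the log2 scale (SE 0.78; edgeR adjusted p = 0.032). Sgk1, a serum- and glucocorticoid-induced kinase, rose from 4.56 ± 0.09 to 19.0 ± 0.38 CPM (2.06, SE 0.38; edgeR adjusted p = 0.031). Vegfa, the angiogenic growth factor listed as an AP-1 target, fell from 217 ± 49.0 to 28.5 ± 0.50 CPM (-2.93, SE 0.59; edgeR adjusted p = 0.038). Creb1, whose protein binds cAMP response elements, fell from 89.5 ± 7.17 to 44.2 ± 4.00 CPM (-1.02, SE 0.21; edgeR adjusted p = 0.040). All 4 had the other sign in batch 1. Their log2 fold changes there were -1.34 (SE 0.70) for Ctgf, -0.50 (SE 0.37) for Sgk1, 0.38 (SE 0.55) for Vegfa and 0.28 (SE 0.21) for Creb1. The 4 calls were 2 of 26 other immediate early genes, 1 of 28 upstream kinases and factors and 1 of 12 textbook targets, and 0 of 8 other AP-1 dimer proteins and 0 of 12 MAPK feedback genes passed. All 4 were lost when any single batch 2 library was left out, as were all calls of that contrast.

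No gene of the 5 lists passed by edgeR in the other 4 contrasts, and limma voom called 0 of them as well. In batch 1 it was 0 of 86, beside 0% of all genes, with 10 below 0.05 unadjusted, beside 9.38%, and 2 by DESeq2, of 220 in all. In the difference between the batches it was 0 of 86, beside 0.155%, with 23 unadjusted, beside 20.3%, and 8 by DESeq2, of 980. Between the control cultures it was 0 of 86, beside 0%, with 8 unadjusted, beside 7.06%, and 2 by DESeq2, of 129. In tumours it was 0 of 94, beside 0.545%, with 15 unadjusted, beside 14.1%, and 5 by DESeq2, of 549. The median log2 fold change of textbook AP-1 targets was -0.48 in batch 1 and 0.61 in batch 2, with 3 of 12 and 10 of 12 above 0, beside medians over all genes of 0.01 and -0.05. Between the control cultures, against which these effects are measured, the targets had a median of -0.89 for batch 2 over batch 1, with 0 of 12 above 0 and 0 past the threshold. For other AP-1 dimer proteins the medians were 0.75 and 0.18, and for other immediate early genes 0.13 and 0.24. For the 9 genes they were 0.05 and 0.49. In tumours the medians were -0.26 for the 9 genes, -0.12 for other immediate early genes, -0.34 for MAPK feedback genes and -0.06 for targets, beside 0.01 for all genes.

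Markers of 7 cell types were compared between shHrs and shCTL tumours to set beside these values with an exact permutation test (two-sided, all ways of dividing the 10 tumours, so that p cannot be below 0.00794). After adjustment over the 7 lists, 0 passed. Erythroid markers differed by -1.41 on the mean log2(CPM + 2) scale (exact p = 0.0317, adjusted 0.222) and skeletal muscle markers by 1.75 (exact p = 0.0794, adjusted 0.278). Leukocyte markers, which summed to 38.4 to 545 CPM with shCTL and 203 to 948 CPM with shHrs, differed by 0.37 (exact p = 0.405, adjusted 0.708). Fibroblast markers spanned 304 to 3388 and 285 to 2059 CPM (difference 0.11, exact p = 0.881) and melanoma markers differed by 0.12 (exact p = 0.238). Their part in the values of the 9 genes was not tested.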

How the data were processed

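RNA-seq libraries of 8 cultures and 10 tumours were analysed from 1 table of raw counts per gene symbol, whole numbers with no normalization, as the authors deposited it. Reads were processed with STAR 2.4.0h2 and DESeq on mm10, per the submitters' processing notes. The kit was NEBNext Ultra, per the labels' protocols. For the counter, gene models and strand mode the entry is the same: not given in the sources used here.

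Counts were filtered with filterByExpr (minimum count 10), scaled by TMM and tested with edgeR 4.0.16 (R 4.3.3) by the two-sided quasi-likelihood test, with Benjamini-Hochberg adjustment over all genes and a threshold of 0.05. The 8 cultures were fitted together with a mean per batch and treatment, and the 10 tumours apart. Each SE was derived from the log2 fold change and the F value. CPM per kb uses the summed exon length of each gene in GENCODE M21. Total counts of 17.6 to 27.7 M set the precision of each value. Between replicates, chi-square per degree of freedom was 13.8 to 209, above sampling noise, so each library counted as 1. Alternatives were DESeq2 1.42.0, limma 3.58.1 (voom), other size factors, no filter, a replicate block, each batch alone and leaving out each library. Procedures were tested on simulated data.

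The 9 genes and all lists were chosen with earlier results of these data known. Of 194 listed symbols, 7 matched by an older symbol and 2 were not found. The rule for named genes took the 9 genes, Hgs and up to 4 called genes of each related list. From outside the 9 genes it also took the 5 genes most like Fos in tumours and the 5 most like Jdp2 in cultures. Atf3, Nr4a1 and Prdx2 were named outside it after their values were seen. Every column was used.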

Additional observations from a re-analysis of the deposited data

Results flagged for a closer look

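In 18 groups of 5 tumours (9 genes, 2 treatments), 3 held a tumour that stood apart by Dixon's test on log2(CPM + 2), where chance gives about 5%. Fosb was at 45.3 CPM in shCTL tumour 1, with a gap to the next of 0.90 of the range. Ier2 was at 62.7 CPM in the same tumour, with a gap of 0.76 of the range. Jdp2 was at 28.3 CPM in shHrs tumour 5, the lowest of all 10 tumours, with a gap of 0.77 of the range.

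The effect of knockdown on Jdp2 differed between the culture batches by -3.05 on the log2 scale, from higher with shHrs in batch 1 to lower in batch 2. Jdp2 was chosen with this difference known, so it is listed as a value and its passing edgeR's threshold is no independent result. It fell short under 6 of 13 alternatives, a replicate block among them.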

How the results depend on the processing

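Counts below are of all genes, then of the 9 genes, then of the 102 related genes, and the cause of each change was not tested. With no filter on low counts the calls were 438, 1 and 5 in batch 1, 2224, 2 and 19 in batch 2, 1311, 3 and 13 for the batch difference and 291, 2 and 7 between control cultures. DESeq2 gave 220, 0 and 2 in batch 1, 1988, 2 and 15 in batch 2, 980, 2 and 8 for the difference, 129, 1 and 2 between control cultures and 549, 0 and 5 in tumours. limma voom called 13 genes for the difference and 2 between control cultures. The 4 libraries of batch 2 alone gave 4303, 4 and 34 calls, with Junb (0.89) and Egr1 (1.23) added to Fos and Jdp2. Leaving out 1 library gave 0 to 1496, 0 to 1 and 0 to 19 calls in batch 1, 0 to 2732, 0 to 2 and 0 to 20 in batch 2, 0 to 1968, 0 to 2 and 0 to 20 for the difference, 0 to 153 genes and 0 to 1 related genes between control cultures and 32 to 158 genes in tumours.

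Of 621 values of the 45 log2 fold changes of the 9 genes under these alternatives, 38 moved by more than 1 standard error and 0 called values changed sign. The batch 2 calls of Fos and Jdp2 held under 10 of 14 alternatives. The Jdp2 difference held under 7 of 13, and the Fos difference passed under 4 of 13. Without shCTL tumour 1, a choice made after seeing the data, 0 of 8 genes kept a correlation with Fos past the threshold (5 with all tumours), with r of 0.40 for Fosb, 0.56 for Fosl2, 0.69 for Jun, 0.72 for Junb and 0.70 for Jund.

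The titles give replicate numbers without saying whether same-numbered libraries belong together. Same-numbered tumours had correlations of deviations of -0.20, -0.13, 0.47, -0.15 and -0.60, with 2 of 10 tumours closest to their own number. Cultures had 0.17 in batch 1 and 0.02 in batch 2, and each culture was closest to its own number. With 2 cultures per group the deviations mirror each other, so any positive value gives that outcome. The check cannot decide whether cultures were paired. A replicate block called 1 gene in batch 1, 464 genes and 7 related genes in batch 2, 18 genes, 0 of the 9 and 1 related gene for the difference, and 2 genes in tumours.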

Other observations

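Genes were ranked by Pearson's r on log2(CPM + 2). The ranking left out the 9 genes themselves, symbols such as Gm numbers and Rik names, and genes with a mean below 1 CPM. Those most like Fos over the 10 tumours, of 11716 ranked, were Ube2j2 (0.95), Hist1h1c (0.92), Naglu (0.91), Hist1h1d (0.91) and Slc25a25 (0.91). Among the 9 genes left out, r with Fos was 0.94 for Jun, 0.93 for Fosb, 0.92 for Jund and 0.92 for Fosl2. Ube2j2 ran from 17.9 to 25.3 CPM, Hist1h1c from 12.8 to 77.3 CPM and Hist1h1d from 0.48 to 3.70 CPM. Those most like Jdp2 over the 8 cultures, of 10991 ranked, were Klf11 (0.99), Prkg1 (0.98), Lnp (0.98), Oaz3 (0.98) and Senp7 (0.98). Klf11, a zinc finger repressor, ran from 6.17 to 34.1 CPM. These are the extremes of long lists over libraries that share their groups and scaling, and are given as a description.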
